A study of Drosophila melanogaster with 2 samples.

Results

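Peaks from chromatin immunoprecipitation followed by sequencing of Hr96, a nuclear receptor, were examined at 9 genes of fatty acid and triacylglycerol synthesis in whole adult female Drosophila melanogaster. The genes were ATPCL, ACC, FASN1, Desat1, Gpat4, Agpat3, Lpin, mdy and SREBP, chosen by their roles, and they are 9 of the 13945 protein-coding genes annotated on the 6 main chromosome arms. For each gene, every peak summit within 500 bp of a transcription start site (TSS) or inside the gene was collected from the peak lists on the dm6 build. Both samples came from the Hr96-GFP line, which carries a transgene of Hr96 with GFP at its C-terminal end, and chromatin was pulled down through the tag with an antibody to GFP. They were biological replicates 1 and 3 of this 1 group, taken from 1 line of flies whose age the labels give as unknown. The promoter of the transgene, and whether the endogenous Hr96 gene was still present, is not given in the sources used here. No sample lacked the fusion, so signal unrelated to Hr96 cannot be told apart from Hr96 binding. Whole animals were used, so the tissue that a peak came from cannot be told. The labels name Hr96 as the antibody target and describe an antibody to GFP elsewhere.

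Fatty acids are built in the cytosol from acetyl-CoA, and triacylglycerol is then made by adding fatty acyl chains to a glycerol backbone. In flies the fat body is the main site of this synthesis, the gut and the oenocytes also carry it out, and growing eggs store its products. Hr96 (also called DHR96) is known for roles in the uptake and breakdown of dietary fat and sterols and in the response to foreign compounds. SREBP is the membrane-bound transcription factor that raises expression of fatty acid synthesis genes, and in flies, which cannot make sterols, its release responds to phosphatidylethanolamine.

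Of the 9 genes, 8 had a summit of the final peak list within 500 bp of a TSS, and SREBP, with its strongest summit 508 bp from its TSS, fell just outside. A gene with such a summit is said to be called, and a TSS with one to be bound. The final list is the one the authors derived from both replicates by the irreproducible discovery rate (IDR), a test of reproducibility. Of its peaks, 80.1% had a summit within 100 bp in both replicates, so a listed peak need not be present in each. The background for this count was 18.1% of protein-coding genes, or 2526 of them (exact 95% interval 17.5 to 18.8%, which covers counting error only). Inside the transcribed region, 8 of the 9 genes held an IDR summit, mdy being without one, beside 10.8% of all genes. Together the genes had 15 IDR summits, 9 of them within 500 bp of a TSS and 6 further into the gene. No test was made of these counts, because the genes were chosen with earlier results of the same data known.

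The IDR list holds 3607 peaks, which are the 3607 strongest of the pooled list, and the pooled list and each replicate's list hold 30000 peaks and background regions. The signal of a peak is its strength over a control as the authors deposited it, on a scale that each list sets for itself. Signals are therefore compared within a list only, and each is given with its rank, where 1 is the strongest. In the IDR list the median signal was 103 and the lowest was 59.9. The depth behind each value is unknown, because the sources used here give no read numbers.

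Genes with more TSSs have more chances of a nearby summit, and 8 of the 9 genes had more than 1 TSS. Among genes with more than 1 TSS, 8 of 8 members were called, beside 32.9% of 3699 genes. With 2 TSSs (FASN1, ATPCL, Gpat4 and mdy) 4 of 4 were called, beside 27.9% of genes. With 4 TSSs (ACC and Lpin) it was 2 of 2 beside 49.2%, and with 5 TSSs (Desat1 and Agpat3) 2 of 2 beside 53.1%. SREBP, with 1 TSS, was not called, beside 12.8% of genes with 1 TSS. Counted by TSS, 13 of the members' 27 TSSs lay within 500 bp of an IDR summit, beside 17.2% of all 19607 TSSs. Among genes as long as the members, between 4186 and 19669 bp, 22.6% had an IDR summit inside the gene, beside 8 of the 9 members. The members' share was above the background share in each of these groups except the genes with 1 TSS, where the only member was SREBP.

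**Figure D1:**
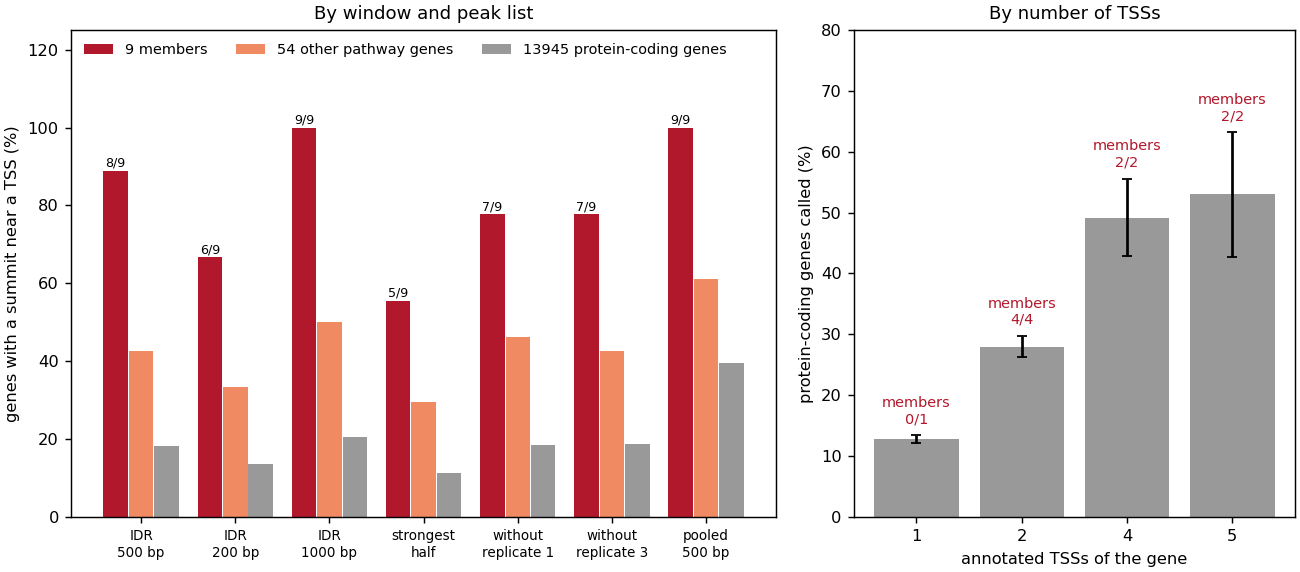
Left, the percentage of genes with a summit near a TSS (y axis) under 7 choices of window and peak list (x axis), for the 9 members (red, with counts), 54 other pathway genes (orange) and 13945 protein-coding genes (grey). Right, the percentage of all genes called with the IDR list and 500 bp, by number of annotated TSSs, with exact 95% intervals as bars and the members' counts in red; the grey bars climb from 12.8% at 1 TSS to 53.1% at 5.

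The count changed with the window and with the strength of the peaks. Within 200 bp of a TSS, an IDR summit was found for 6 members (Lpin, mdy and SREBP had none) beside 13.6% of genes. Within 1000 bp, all 9 did, beside 20.5% of genes. Among the 1803 strongest IDR peaks, 5 members were called beside 11.3% of genes, and ACC, ATPCL, Agpat3 and SREBP were not. In the whole pooled list, background regions included, 9 of 9 members had a summit within 500 bp of a TSS beside 39.5% of genes. In the whole list of replicate 1 it was 8 of 9 beside 39.0%, ATPCL being the exception, and in that of replicate 3 it was 9 of 9 beside 44.2%. With the 3607 strongest peaks of replicate 3, without replicate 1, 7 members were called (not Gpat4 or SREBP) beside 18.4% of genes. With the 3607 strongest of replicate 1, without replicate 3, 7 were called (not ACC or ATPCL) beside 18.6%.

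**Figure D2:**
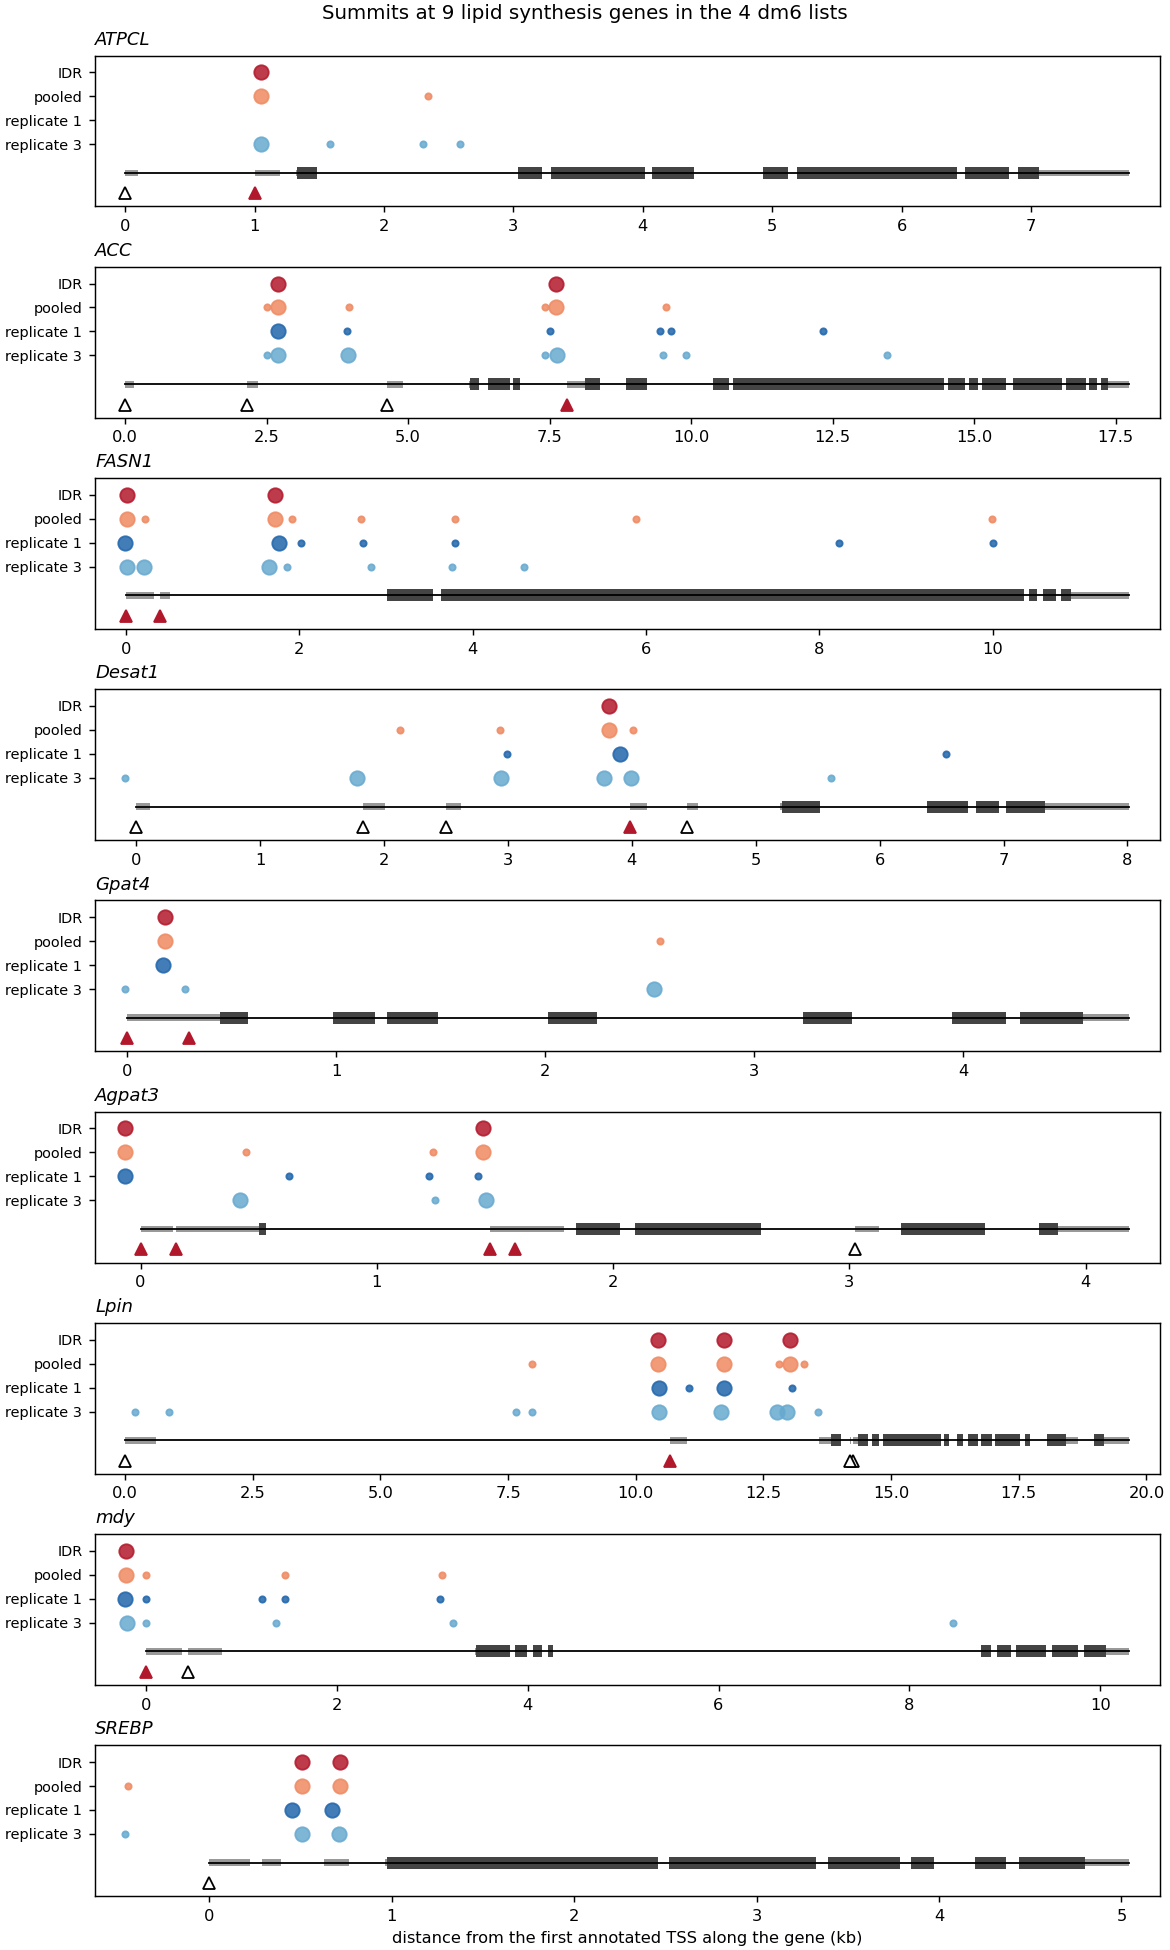
Summits of the 4 lists (rows) along the 9 genes, drawn 5' to 3' with distance from the first annotated TSS in kb on the x axis. Large dots are summits among the 3607 strongest of their list and small dots weaker ones; dark boxes are coding exons, grey boxes untranslated exons, filled triangles the TSSs that an IDR summit lies within 500 bp of, and open triangles the other TSSs, and most large dots stand near filled triangles or in the introns after them.

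ATPCL makes cytosolic acetyl-CoA from citrate and so supplies the carbon for the pathway. The gene (FBgn0020236) lies on chromosome 2R from 15993531 to 16001290 on the minus strand and starts at 2 TSSs. Its IDR summit at 16000238 lay 49 bp downstream of the TSS at 16000287, in a 5' untranslated exon, with a signal of 75.4 and rank 2681. The bound TSS is that of transcripts RF and RG, and the upstream TSS at 16001290, of transcripts RD and RE, had no IDR summit within 500 bp. The transcripts of both TSSs begin translation at the same position, and their longest proteins have 1096 and 1112 amino acids. In replicate 3 the peak had a signal of 39.5 and rank 2129. Replicate 1 had no summit anywhere in the gene or within 500 bp of its TSSs, in 30000 peaks and background regions. ATPCL was the only member of which this was true, so its call came from the pooled data and replicate 3. Deeper in the gene, the pooled list had 1 weak summit of rank 21597 and replicate 3 had 3, of ranks 18202 to 20661.

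ACC turns acetyl-CoA into malonyl-CoA, the committed step of fatty acid synthesis. The gene (FBgn0033246, chromosome 2R, 7974115 to 7991862, minus strand) starts at 4 TSSs, and only the innermost, that of transcript RE at 7984063, had an IDR summit within 500 bp. That summit, at 7984241 in an intron and 178 bp upstream, had a signal of 67.2 and rank 3102. No other called member had so weak a strongest promoter summit. In replicate 3 it had a signal of 34.3 and rank 2699. Replicate 1 had its nearest summit 288 bp upstream of the RE start, with a signal of 33.1 and rank 4320, too far from the IDR summit to count as the same peak at 100 bp. Transcript RE encodes 2348 amino acids from its own translation start, and the other transcripts encode 2323 to 2482.

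The stronger ACC summit was not at a TSS by the 500 bp rule. It lay at 7989153 in an intron, 561 bp downstream of the RF start, with a signal of 103.9 and rank 1774. Both replicates held it at the same base, replicate 1 with a signal of 46.1 (rank 2801) and replicate 3 with 53.3 (rank 1277). The gene Nup44A also spans this position, so the summit cannot be assigned to ACC alone. A pair of further intronic summits in the pooled list stood just below the IDR list, at ranks 3711 and 3803 with signals of 58.6 and 57.7. The first of them was 667 bp upstream of the TSS shared by RA, RB and RC. In all, the pooled list had 3 ACC summits within 500 bp of a TSS, and each replicate had 5 summits deeper in the gene, from rank 1277 down to 27745.

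FASN1 is the fatty acid synthase of the fat body, which builds long saturated chains from malonyl-CoA. The gene (FBgn0283427, chromosome 2L, 3056598 to 3068177, plus strand) has 2 TSSs that lie 391 bp apart, for transcripts RA and RC. Its first IDR summit, at 3056613, was 15 bp downstream of the RA start in a 5' untranslated exon, and both TSSs were within 500 bp of it. The signal there was 141.5 (rank 1173), with 76.6 (rank 1525) in replicate 1 and 65.5 (rank 881) in replicate 3. The nearer TSS is that of RA, whose coding sequence begins 3310 bp further on, while RC begins translation 119 bp from its own start and encodes 2540 amino acids, beside 2438 for RA. A weaker pooled summit (signal 35.0, rank 8336) lay 175 bp upstream of the RC start, and replicate 3 had one there as well (41.3, rank 1954). RA thus had the strongest FASN1 summit closest to it in every list, and replicate 1 had no second summit near RC.

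The other IDR summit of FASN1 lay in the intron that follows, 1324 bp downstream of the RC start at 3058313. Its signal was 100.7 (rank 1845), with 38.0 (rank 3565) in replicate 1 and 65.5 (rank 883) in replicate 3. Replicate 3 thus ranked the intronic and the promoter summit of FASN1 almost equally, and replicate 1 put the promoter well ahead. Beyond 500 bp from a TSS, the pooled list had 6 FASN1 summits, replicate 1 had 6 and replicate 3 had 5, and all but the intronic peaks around 3058313 ranked weaker than 3607.

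The sequences around the 2 FASN1 summits are shown because the promoter and the intronic peak of 1 gene differ in what they hold. They are from the RefSeq copy of dm6 on the plus strand, chr2L:3056513-3056597, the stretch that ends at the base before the RA start and so before the summit, and chr2L:3058213-3058413, the bases within 100 bp of the intronic summit. Capitals mark TATAAA in the first, the letters of a TATA box, and ATCGAT in the second, which is part of the DRE element TATCGATA bound by the promoter factor DREF.
FASN1 promoter: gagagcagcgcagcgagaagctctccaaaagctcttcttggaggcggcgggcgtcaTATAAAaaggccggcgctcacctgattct
FASN1 intron: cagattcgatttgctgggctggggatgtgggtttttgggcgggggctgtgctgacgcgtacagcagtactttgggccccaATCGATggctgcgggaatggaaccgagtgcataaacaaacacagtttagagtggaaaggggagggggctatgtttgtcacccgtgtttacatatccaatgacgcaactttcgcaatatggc
The TATAAA was centred 26 bp upstream of the RA start. Its letters were in 28.6% of the windows within 100 bp of all IDR summits and in 29.3% of 13682 promoter windows of the same length, so its presence alone does not set FASN1 apart. ATCGAT was in 11.8% of the IDR windows and 18.8% of the promoter windows, and neither FASN1 window held the whole TATCGATA.

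Desat1 introduces the double bond that turns saturated into monounsaturated fatty acids, in fat storage and in the making of cuticular pheromones. The gene (FBgn0086687, chromosome 3R, 12439600 to 12447616, plus strand) has 5 TSSs, and all its transcripts encode the same 383 amino acids, so they differ in their untranslated first exons. The single IDR summit, at 12443412 in an intron, lay 170 bp upstream of the RB start at 12443582. It had a signal of 134.1 (rank 1263), with 65.3 (rank 1843) in replicate 1 and 83.2 (rank 554) in replicate 3. RB was the bound TSS by the IDR list, and those of RA, RC, RE and RD had no IDR summit within 500 bp.

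Weaker summits lay near other Desat1 TSSs, more of them in replicate 3 than in replicate 1. In replicate 3, summits stood 44 bp upstream of the RC start (signal 30.3, rank 3271), 443 bp downstream of the RE start (29.9, rank 3351) and 90 bp upstream of the RA start (28.2, rank 3649). The last of these also lay within 500 bp of TSSs of CG17207 and CG46427, so it is shared. Another lay 9 bp downstream of the RB start (38.7, rank 2197). Replicate 1 had 1 weak summit, of rank 27209, near the RE start besides the main one at RB. The pooled list had 3 more promoter summits at Desat1, of ranks 5776, 5940 and 27973, the first of them 438 bp downstream of the RE start. RB carried the strongest summit in all 4 lists.

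The Desat1 window, chr3R:12443312-12443512 on the plus strand of dm6, is shown for its low GC content of 30.8%, beside a median of 39.3% over all IDR windows. Capitals mark a TATAAA, centred 224 bp upstream of the RB start.
Desat1: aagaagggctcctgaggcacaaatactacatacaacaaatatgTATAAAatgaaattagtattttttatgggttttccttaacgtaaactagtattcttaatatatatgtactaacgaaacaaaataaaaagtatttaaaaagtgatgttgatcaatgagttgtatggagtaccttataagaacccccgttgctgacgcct

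Gpat4 adds the first acyl chain to glycerol-3-phosphate, the entry step of glycerolipid assembly. The gene (FBgn0034971, chromosome 2R, 24068757 to 24073552, plus strand) has 2 TSSs 293 bp apart, and its IDR summit at 24068938 fell between them, within 500 bp of both. It was 112 bp upstream of the start shared by RB, RC and RD, in a 5' untranslated exon, with a signal of 134.9 and rank 1256. Replicate 1 held it with a signal of 118.1 and rank 863. In replicate 3 the nearest summit had a signal of 18.3 and rank 7235, and a stronger one (27.1, rank 3890) lay 10 bp upstream of the RE start. Gpat4 was therefore a peak mainly of replicate 1, and in replicate 3 its strongest promoter summit was just outside the 3607 strongest. Transcript RE encodes 380 amino acids and the other transcripts 458 to 537. A TSS of the neighbouring gene yki, a growth-control coactivator, was also within 500 bp of the summit, so the peak is shared between both genes. Inside the gene, replicate 3 had an intronic summit of rank 2648 (signal 34.7) and the pooled list one of rank 5943 (41.6).

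Agpat3 adds the second acyl chain and makes phosphatidic acid. The gene (FBgn0036623, chromosome 3L, 16381772 to 16385957, minus strand) has 5 TSSs in 3 places, and 2 of these places had an IDR summit. One, at 16384509 in an intron, lay 30 bp upstream of the RC start and near that of RB, with a signal of 76.9 (rank 2619). It had 33.3 (rank 4274) in replicate 1 and 30.6 (rank 3219) in replicate 3. The other, at 16386022, lay 65 bp upstream of the RA start and near that of RE, outside the gene, with a signal of 62.3 and rank 3428, close to the bottom of the IDR list. Replicate 1 held the upstream summit at the same base (56.6, rank 2167), and replicate 3 had none within 100 bp.

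Near the RA and RE starts, replicate 3 had its strongest Agpat3 summit 272 bp downstream of RE (signal 35.2, rank 2588). Both replicates thus put the strongest summit near RA and RE, ahead of that at RC, while the IDR and pooled lists put RC first. The pooled list had 2 more promoter summits, of ranks 5174 and 6237. The innermost TSS, of transcript RD, which encodes a protein of 143 amino acids beside 386 to 397 for the others, had no IDR summit within 500 bp. A TSS of the gene RAF2 lay within 500 bp of the upstream summit, which is therefore shared. No Agpat3 summit in any of the 4 lists was further than 500 bp from a TSS.

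The Agpat3 stretches upstream of its bound start sites are shown together because they differ in composition. They are chr3L:16384480-16384609, upstream of the RC start, and chr3L:16385958-16386122, upstream of the RA start, both on the minus strand of dm6 and both ending at the base before the TSS. Capitals mark ATCGAT, centred 19 bp upstream of the RC start, and the second stretch has none of the letters searched.
Agpat3 RC start: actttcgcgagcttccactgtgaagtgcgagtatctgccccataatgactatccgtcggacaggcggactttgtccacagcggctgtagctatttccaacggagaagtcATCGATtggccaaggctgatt
Agpat3 RA start: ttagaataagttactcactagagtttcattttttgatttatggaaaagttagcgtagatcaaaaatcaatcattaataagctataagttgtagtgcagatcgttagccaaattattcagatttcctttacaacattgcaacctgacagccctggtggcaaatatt
The windows within 100 bp of the 2 summits had 53.2% GC at RC and 31.3% at RA, the highest value and one of the lowest among the 9 promoter windows.

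Lpin removes the phosphate from phosphatidic acid and so makes diacylglycerol, the branch point between storage fat and phospholipids. The gene (FBgn0263593, chromosome 2R, 8136986 to 8156654, minus strand) had the strongest summit of the 9 genes, and the next strongest, at SREBP, ranked 786. It lay at 8146221 in an intron, 240 bp upstream of the start at 8145981, which 7 of its transcripts share, and had a signal of 408.8 and rank 184. Replicate 1 gave 272.5 and replicate 3 gave 136.1 (rank 179), and the rank was nearly the same in both replicates. Its other TSSs had no IDR summit within 500 bp. These are the far upstream start of RK and RM at 8156654 and the internal starts of RG and RJ, which begin translation at a later position and encode 1016 and 962 amino acids, beside 992 to 1089 for the bound start.

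A further 2 IDR summits lay in introns of Lpin. One was 1060 bp downstream of the bound start (signal 123.1, rank 1410), with 84.1 (rank 1355) in replicate 1 and 42.8 (rank 1850) in replicate 3. The other was 1174 bp upstream of the RG start (68.2, rank 3048), with 26.2 (rank 6487) in replicate 1 and 40.4 (rank 2041) in replicate 3. Lpin was the member with the most IDR summits, 3 in all, and they fell in order of strength from the bound start towards the 3' end. Replicate 1 alone had a second, weak summit near the bound start, 363 bp downstream of it (23.3, rank 8896). Replicate 3 alone had a weak summit at the upstream start, 188 bp downstream of the RK and RM start (14.8, rank 11115). It lay inside the gene kermit and within 500 bp of a kermit TSS, so it is shared. Beyond 500 bp from a TSS, the pooled list had 5 Lpin summits, replicate 1 had 2 and replicate 3 had 7. Of these, the pooled summit of rank 7641 and the replicate 3 summits of ranks 7334 and 15075 also lay within 500 bp of a kermit TSS.

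Lpin's main window held AGGTCA, the core letters of nuclear receptor sites, 80 bp from the summit. Of the 9 promoter windows of the members it was the only one with AGGTCA on either strand, and of the other 6 windows only that of the ACC summit at rank 1774 had it, 72 bp from the summit. Over all IDR windows the share was 3.52%, and over promoter windows of the same length it was 3.26%. Within 50 bp of the summit no member promoter had AGGTCA, since the Lpin match lies further away.

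The last step is carried out by mdy (midway), the diacylglycerol acyltransferase that makes triacylglycerol and that is needed for egg development. The gene (FBgn0004797, chromosome 2L, 16816660 to 16826964, plus strand) has 2 TSSs, and the bound one is that of RA, RB and RC at 16816660, while RE at 16817108 had no IDR summit within 500 bp. All of these transcripts encode the same 565 amino acids. The summit, at 16816456, lay 204 bp upstream with a signal of 115.7 and rank 1547. In replicate 1 the signal was 79.3 (rank 1464) and in replicate 3 it was 29.8 (rank 3368). This position is inside an intron of CG13280, a gene on the opposite strand that overlaps mdy, and no TSS of CG13280 was within 500 bp. A second and weaker summit stood at the start itself in the other lists, 6 bp downstream of it in the pooled list (35.6, rank 7995) and in replicate 1 (21.7, rank 10749), and 1 bp downstream in replicate 3 (12.2, rank 17201). Further into the gene the pooled list had 2 summits and each replicate 3, the strongest of rank 5468.

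The mdy window, chr2L:16816356-16816556 on the plus strand of dm6, is shown because it holds, in capitals, an ATCGAT, centred 66 bp upstream of the summit. Its GC content was 32.8%.
mdy: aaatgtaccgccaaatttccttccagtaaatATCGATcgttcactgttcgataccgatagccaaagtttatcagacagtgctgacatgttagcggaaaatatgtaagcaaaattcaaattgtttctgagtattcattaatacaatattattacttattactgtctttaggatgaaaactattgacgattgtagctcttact

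SREBP (FBgn0261283, chromosome 3L, 19793935 to 19798979, plus strand) had a strong summit that the 500 bp rule missed by a few bases. Its 4 transcripts share 1 TSS and encode the same 1113 amino acids. The strongest summit, at 19794443 in an intron, lay 508 bp downstream of the TSS, with a signal of 188.2 and rank 786. By signal it came after the Lpin summit and ahead of those of the other 7 genes. Replicate 3 placed the summit 506 bp downstream (86.2, rank 512). Replicate 1 placed it 450 bp downstream (108.9, rank 980), so SREBP counted as called in that list.

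The second SREBP summit lay 717 bp downstream in a 5' untranslated exon, with a signal of 71.5 (rank 2878), 49.7 (rank 2517) in replicate 1 and 57.4 (rank 1114) in replicate 3. Its peak overlapped that of the first. Upstream of the TSS there was 1 weak pooled summit at 445 bp (23.2, rank 24260) and 1 in replicate 3 (12.9, rank 15090), both inside CG42637 and Gyc76C and within 500 bp of a TSS of each. The strongest SREBP summit thus stood downstream of the TSS in all 4 lists, ahead of the coding sequence, which begins 975 bp from the TSS.

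The SREBP window, chr3L:19794343-19794543 on the plus strand of dm6, spans 100 bp on each side of the stronger summit and is shown because it has the second strongest member summit but none of the motifs searched. The letters searched were AGGTCA, TATCGATA (DRE), CACGTG (E-box), TCACNCCAC (sterol regulatory element), TATAAA and ATCGAT, on both strands, and nothing is in capitals.
SREBP: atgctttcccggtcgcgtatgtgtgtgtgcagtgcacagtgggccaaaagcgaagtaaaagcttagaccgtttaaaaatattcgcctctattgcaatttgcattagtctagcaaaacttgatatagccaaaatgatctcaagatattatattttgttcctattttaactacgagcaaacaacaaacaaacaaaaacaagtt

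**Figure D3:**
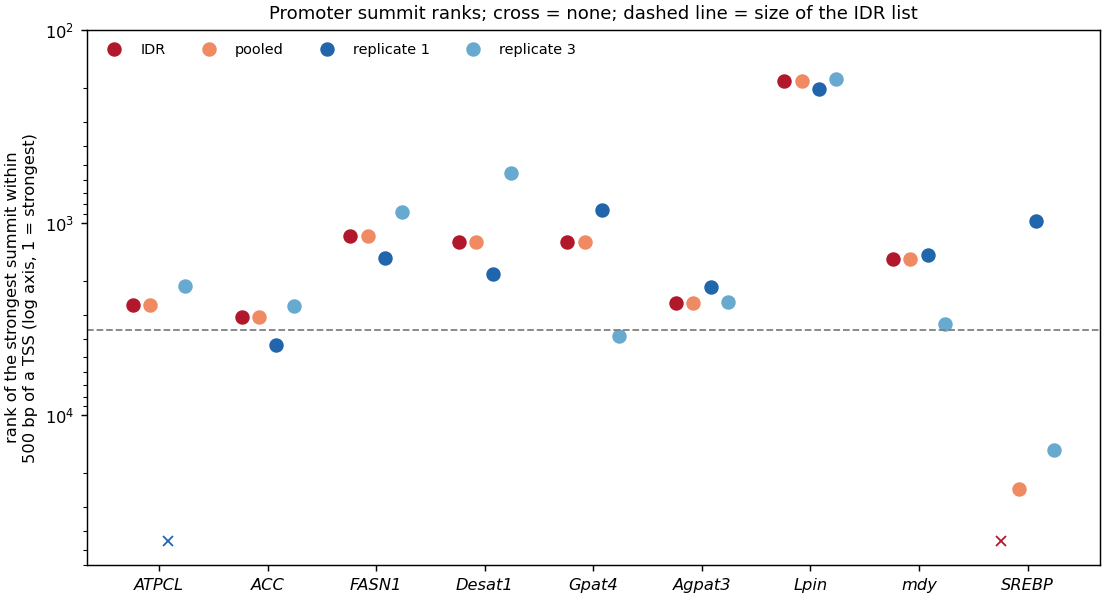
Rank of the strongest summit within 500 bp of a TSS (y axis, log scale, 1 at the top) for each gene in the IDR, pooled, replicate 1 and replicate 3 lists; the dashed line is the size of the IDR list and crosses mark lists with no such summit. Lpin stands near rank 184 in every list, and ATPCL in replicate 1 and SREBP in the IDR list have none.

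Across the genes, the bound start was one of several in 6 of the 8 called members, and in FASN1 and Gpat4 all TSSs lay within 500 bp of a summit. ATPCL, ACC and Desat1 had the summit at a start other than the most upstream one, and so did Lpin. In mdy it was at the most upstream start, and Agpat3 had one there and one at an inner start. Of the 9 promoter summits, 7 were upstream of the nearest TSS, and the median distance of all 9 from it was 112 bp. Over all 2217 IDR summits within 500 bp of a protein-coding TSS, 74.4% were upstream and the median distance was 99 bp. In gene structure, 4 of the 9 promoter summits lay in introns, each upstream of an inner start, 3 in 5' untranslated exons and 2 upstream of the gene. Of the 6 IDR summits over 500 bp from a TSS, 5 were in introns and 1, that of SREBP, was in a 5' untranslated exon. No IDR summit of the members lay in a coding exon. No share over all IDR summits stands beside these counts by gene structure, so they describe the members only.

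By rank, the called members were spread through the IDR list. The median IDR rank of the strongest promoter summit was 1405 over the 8 called members and 1373.5 over all called genes, and the members ran from 184 to 3102.

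Since each list sets its own scale, the log2 difference between the replicates is read here only against the same difference over all IDR peaks. Of the 15 IDR summits, 12 had a summit within 100 bp in both replicates, beside 80.1% of all IDR peaks. Over these 12 the median of log2 replicate 1 minus replicate 3 was 0.18. Over all 2888 matched IDR peaks the median was 0.90 with an SD of 0.84. The members' values ran from -0.78 for the intronic FASN1 summit to 2.69 for Gpat4, and 8 of the 12 were below the overall median. Other low values were -0.62 for the weakest Lpin summit and -0.35 for Desat1, and the main Lpin summit (1.00) and mdy (1.41) lay above the overall median. The Gpat4 value rests on a replicate 3 summit 95 bp from the IDR summit, with none within 50 bp. A stronger replicate 3 summit (27.1, rank 3890) lay further off at the same promoter. The 12 summits share genes, since Lpin has 3 and FASN1 and SREBP have 2 each. With 2 replicates no test of this difference was made.

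**Figure D4:**
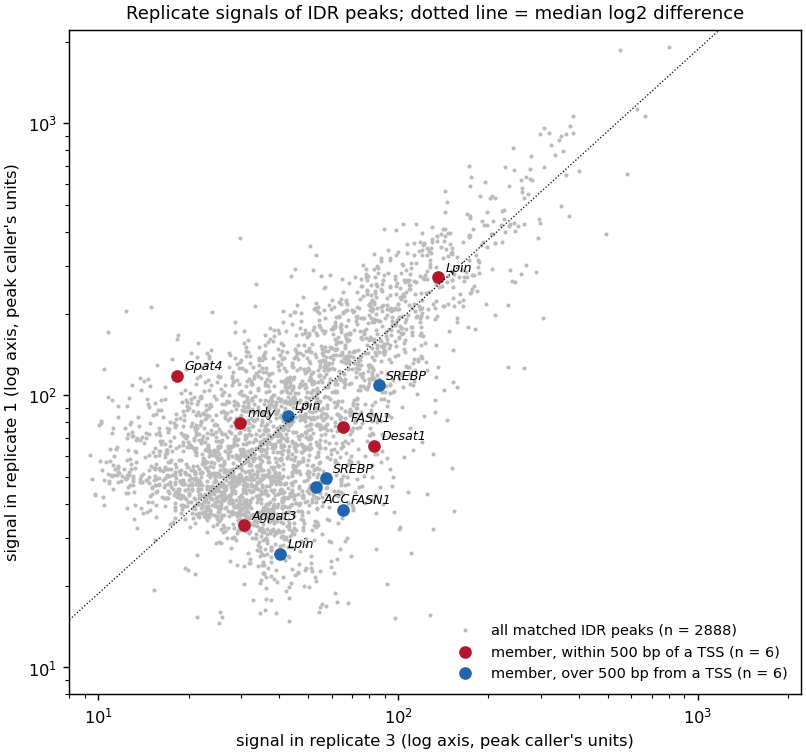
Signal in replicate 1 (y axis) against replicate 3 (x axis), both log axes in the peak caller's units, for 2888 IDR peaks matched in both replicates (grey) and the members' 12 summits, near a TSS (red) or not (blue). Gpat4 stands apart at 118.1 in replicate 1 and 18.3 in replicate 3, and 8 of the 12 member summits lie below the dotted line, which marks the median log2 difference of 0.90 over all matched peaks. The replicate 3 summit matched for Gpat4 lay 95 bp from the IDR summit.

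A promoter summit was matched in both replicates within 100 bp in 6 of the 8 called members. ACC had a replicate 1 promoter summit, but too far from the IDR summit to match, and ATPCL had none in replicate 1. The count depended on the distance, with 4 members at 50 bp and 7, ACC included, at 200 bp. In 4 of the 6 matched at 100 bp, FASN1, Desat1, Lpin and mdy, the matched peaks were among the 3607 strongest of both replicates. In Gpat4 the replicate 3 peak was weaker than that, and in Agpat3 the replicate 1 peak was.

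Of the letters searched within 100 bp of the summits, none was in more than 2 of the members' 9 promoter windows. Other motifs were not looked for. None of the 9 promoter windows held the DRE, the E-box or the sterol regulatory element, through which SREBP is known to bind, and the shares over all IDR windows were 4.46%, 2.55% and 0.527%. Over promoter windows of all genes, the same motifs were in 7.87%, 2.89% and 0.402%. With such shares, 0 of 9 says only that these letters were not there. ATCGAT and TATAAA were searched after the sequences had been read, and each was in 2 of the 9 promoter windows, ATCGAT at Agpat3 and mdy and TATAAA at FASN1 and Desat1. ATCGAT was in 11.8% of IDR windows and 18.8% of promoter windows. GC content ran from 29.4% at the main Lpin summit to 53.2% at Agpat3, so the windows did not share a composition either.

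Among 54 other genes of the pathway, 23 (42.6%) were called by the same rule. The share differed with the number of TSSs. Of the 28 with more than 1 TSS, 20 (71.4%) were called, beside 32.9% of all such genes. Of the 26 with 1 TSS, 3 (11.5%) were, beside 12.8% of all such genes.

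The role groups differed in how many of their genes have a single TSS, so their counts were not compared with each other. The share to set beside each count is 18.1% of all protein-coding genes. It was 32.9% for genes with more than 1 TSS and 12.8% for genes with 1 TSS. Genes that supply carbon and NADPH were called in 6 of 7 cases, and 1 of the 7 has 1 TSS. They were led by sea, the mitochondrial citrate carrier (signal 514.7), Zw, the glucose-6-phosphate dehydrogenase (193.6, rank 753), and AcCoAS, the acetyl-CoA synthetase (95.0, rank 1982), and the malic enzyme gene Men-b was not called. The sea summit also lay inside fabp, a fatty acid binding protein gene. Elongation and desaturation genes, of which 12 of 13 have 1 TSS, were called in 2 cases, spidey, a ketoacyl reductase (420.0, rank 167, shared with dpr14), and Baldspot, an elongase (206.6, rank 675). FASN2 and FASN3, the other fatty acid synthases, and Desat2 were not called, and each has 1 TSS, though FASN2 held an IDR summit inside the gene. Activation genes were called in 2 of 6 cases, pdgy, an acyl-CoA synthetase (319.5, rank 308), and Fatp1, a fatty acid transporter (105.2, rank 1742, shared with Lrr47).

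Genes of glycerolipid assembly other than the members were called in 5 of 11 cases, beside 18.1% of all protein-coding genes. The strongest were Gpdh1, the glycerol-3-phosphate dehydrogenase (226.9, rank 590, shared with Sfp26Ad), the acyltransferase genes Agpat2 (143.6, rank 1151, shared with prg) and Agpat4 (139.1, rank 1205). Agpat4 neighbours Agpat3 and has its own summit, 140 bp downstream of its TSS, stronger than either Agpat3 summit. Dgat2, another diacylglycerol acyltransferase, has 1 TSS and was not called. The phospholipid branch had 2 of 7, eas, the ethanolamine kinase (204.3, rank 689), and Pcyt1, an enzyme of phosphatidylcholine synthesis (129.1, rank 1320). Regulators had 6 of 10, led by SNF4Agamma, a subunit of AMP-activated kinase with 11 TSSs (261.9, rank 459), Sik3, a kinase of fat storage (258.5, rank 470), and bigmax, the partner of the sugar sensor Mondo (179.6, rank 833, shared with Hmu). SCAP, S1P and S2P, which carry and cut the SREBP protein, were not called, and each has 1 TSS. In the pathway as a whole, genes with more TSSs were missed as well. These were Acsl (7 TSSs), Gk2 (5), bond (3), and bgm, Fatp2, Gk1, Agpat1 and Cds (2 each). Of these, Acsl and Gk2 held an IDR summit inside the gene. Of the genes named here for their peaks, spidey and eas had no summit within 100 bp in replicate 1, and Fatp1 had none in replicate 3.

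**Figure D5:**
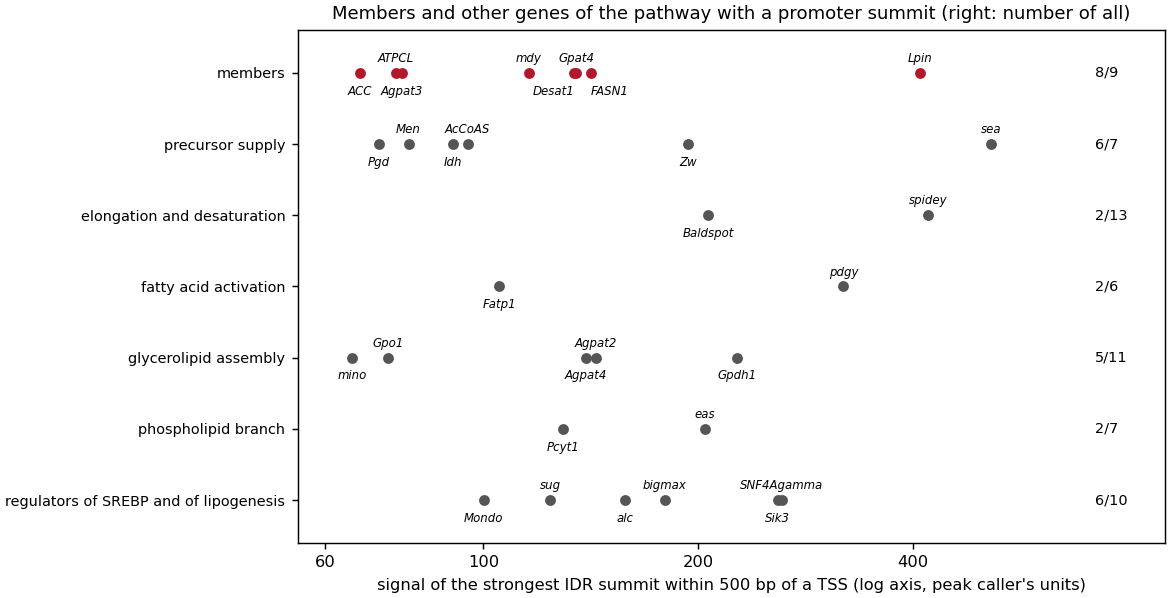
Signal of the strongest IDR summit near a TSS, at 500 bp or less (x axis, log scale, peak caller's units) for the called members (red) and the other called pathway genes (grey), 1 row per role group, with the number called of all genes in the group at the right. Precursor supply has 6 of 7 called and elongation and desaturation, where 12 genes have 1 TSS, 2 of 13, and Lpin stands among the strongest peaks shown, below sea and spidey. Over all protein-coding genes 18.1% were called.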

How the data were processed

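Hr96-GFP was measured by ChIP-seq in whole adult females, in biological replicates 1 and 3 of 1 group, with sonicated chromatin per the labels. The authors deposited narrowPeak lists on dm6, and 4 dm3 lists were not used. In the deposited lists, the column order gives each peak a signal, its strength over 1 control file that both replicates share, and a −log10 q-value. Per the deposited text lists, peaks were called for each replicate and for both together, and from these came the IDR list. Which aligner, peak caller and IDR threshold were used is not given in the sources used here.

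Peaks were ranked by signal within each list. TSSs and genes came from Ensembl release 115 on BDGP6 (dm6), and bases from RefSeq's sequence of the same assembly, whose arms contain all peaks. Motifs were searched within 100 bp of a summit, and for their shares over promoters in windows of the same length centred on the 5' ends of RefSeq genes. A summit belonged to a gene if within 500 bp of a TSS or inside the gene, and to a replicate's summit if within 100 bp. The distances, the peak list, the annotation and the summit window were varied, and each replicate was left out by taking the other's 3607 strongest peaks. No p-value was computed. Shares of protein-coding genes have exact Clopper-Pearson 95% intervals. The shares of single TSSs, other pathway genes, motif windows and matched peaks have none. On simulated data the steps recovered 200 of 200 planted summits, matches and motifs.

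The members and the lists of other pathway genes, 55 names in 6 role groups, were chosen with earlier results of these data known. A pair of names was resolved by synonym and 1 named a gene already listed, which left 54 genes. All 9 members are named, and of the other genes up to 3 per role group with the strongest promoter peak, besides genes that share a member's summit. The genes named as not called, the genes whose summits other pathway genes share and fabp were added after their values were seen. The scripts ran in Python 3.11.15 with SciPy 1.17.1, pandas 2.3.3, numpy 2.4.6 and, for figures, matplotlib 3.10.9.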

Additional observations from a re-analysis of the deposited data

How the results depend on the processing

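Of 77 recomputed values for 32 results, 65 kept the main value within the spread allowed (1.5 times for a count) and 12 moved. With the 1803 strongest IDR peaks, 5 members and 1571 protein-coding genes were called, and with the whole pooled list 5506 genes were. Leaving out replicate 1 or replicate 3, members called within 500 bp were 7 either way, beside 18.4% and 18.6% of protein-coding genes. Members with a summit inside the gene were 8 without replicate 1 and 6 without replicate 3, beside 11.1% and 10.6% of genes. Other pathway genes called were 23 to 25, and protein-coding genes called 2567 to 2592. By number of TSSs the background of 18.1% was 12.8%, 27.9%, 49.2% and 53.1% at 1, 2, 4 and 5 TSSs. Within 1000 bp the strongest ACC summit had a signal of 103.9, since the window then takes in the summit 561 bp from RF. Within 50 bp of the summit, AGGTCA was in 0, TATAAA in 1 and ATCGAT in 1 of the 9 promoter windows, and within 200 bp the E-box was in 1, at Desat1. RefSeq TSSs gave 8 members, with no share of all genes by those TSSs to set beside it. Lpin and mdy have no value at 200 bp, and summits with no replicate summit within 50 bp have none at that distance. No paired analysis was possible because there is 1 group. Depth is unknown, so the absence of ATPCL from replicate 1 cannot be set against its sequencing depth.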
